A study of Homo sapiens with 6 samples.

Results

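The prostaglandin genes described here are 10 genes of the prostaglandin pathway, out of 18417 genes measured. They encode the phospholipase PLA2G4A, the cyclooxygenases PTGS1 and PTGS2, the terminal synthases PTGES and PTGIS, the transporter SLCO2A1, the catabolic enzyme HPGD and the receptors PTGER2, PTGER4 and PTGFR. They were chosen by name, and each gene was read from the probe set that carries its symbol alone. The list was drawn up with earlier results of these arrays known, so ranks and p-values of its genes are descriptions. Between probe sets of a gene, the mean level over the 6 arrays decides. Each of the 10 genes had 1 such probe set, so there was nothing to decide. RNA came from IMR90, human lung fibroblasts grown in culture, which the labels call primary cells. The 3 control samples were untreated, and the 3 oncostatin M samples received a single dose of recombinant human oncostatin M at 10 ng/mL, with no other difference between the groups in the labels. Oncostatin M, a relative of interleukin-6, acts on cells by way of JAK kinases and the transcription factor STAT3. The comparison asks which transcripts differ in level after the cytokine. How long the cells were treated is not given in the labels. Nor do the labels say whether the replicates came from separate cultures, so the spread that p-values measure may be technical.

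Prostaglandins are short-lived lipid signals made from arachidonic acid. A phospholipase frees arachidonic acid from membranes, a cyclooxygenase turns it into prostaglandin H2, and terminal synthases make prostaglandin E2, prostacyclin and the other prostanoids from that common intermediate. The products leave the cell and act on G protein-coupled receptors of the same or neighbouring cells, and they are cleared by uptake through SLCO2A1 and oxidation by HPGD. Lung fibroblasts are known as a source of prostaglandin E2, which acts back on them through the receptors EP2 and EP4, both of which raise cyclic AMP.

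Levels are log2 values made by RMA, an array method that corrects background and makes arrays comparable, and a change is the oncostatin M mean minus the control mean, with the standard error (SE) and the 95% confidence interval of limma, a linear model fitted to all genes. A gene is called changed at a p under 0.05 after Benjamini-Hochberg adjustment over all 18417 genes. A permutation test of 3 against 3 arrays cannot give a two-sided p below 0.10, so none is given. Medians of the 6 arrays ran from 6.54 to 6.66, and pairs of arrays correlated at 0.989 to 0.997 over all probe sets. The array of oncostatin M replicate 1 stood farthest from its group (mean correlation 0.992, weight 0.226 when limma estimated array weights). Of 10 fibroblast markers tested, 9, among them COL1A1, DCN and THY1, lay in both groups above the level that 95% of 409 olfactory receptor and keratin-associated protein genes stay under (6.74), and S100A4 had means of 6.70 in control and 6.80 after oncostatin M. Those 409 genes are expected to be silent in fibroblasts, and the level serves below as a rough scale. It is no call of detection.

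After oncostatin M, 3 of the 10 genes were higher and none was lower. SLCO2A1, the prostaglandin uptake transporter, rose 8.45-fold, PTGS2, the inducible cyclooxygenase, rose 2.57-fold, and PTGER2, the receptor EP2, rose 1.38-fold. The other enzymes, the constitutive cyclooxygenase and the receptors PTGER4 and PTGFR did not pass the threshold. Over all genes 1.72% were called higher and 1.70% lower (3.42% in either direction). With limma, 5 of the 10 genes were higher and 1 was lower at an unadjusted p under 0.05, against 4.98% and 6.66% of all genes. The median change of the 10 genes was 0.32 and that of all genes 0.00057, with 7 of the 10 above 0. Since the genes were listed with results of these arrays known, their count, ranks and p-values are descriptions.

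**Figure D1:**
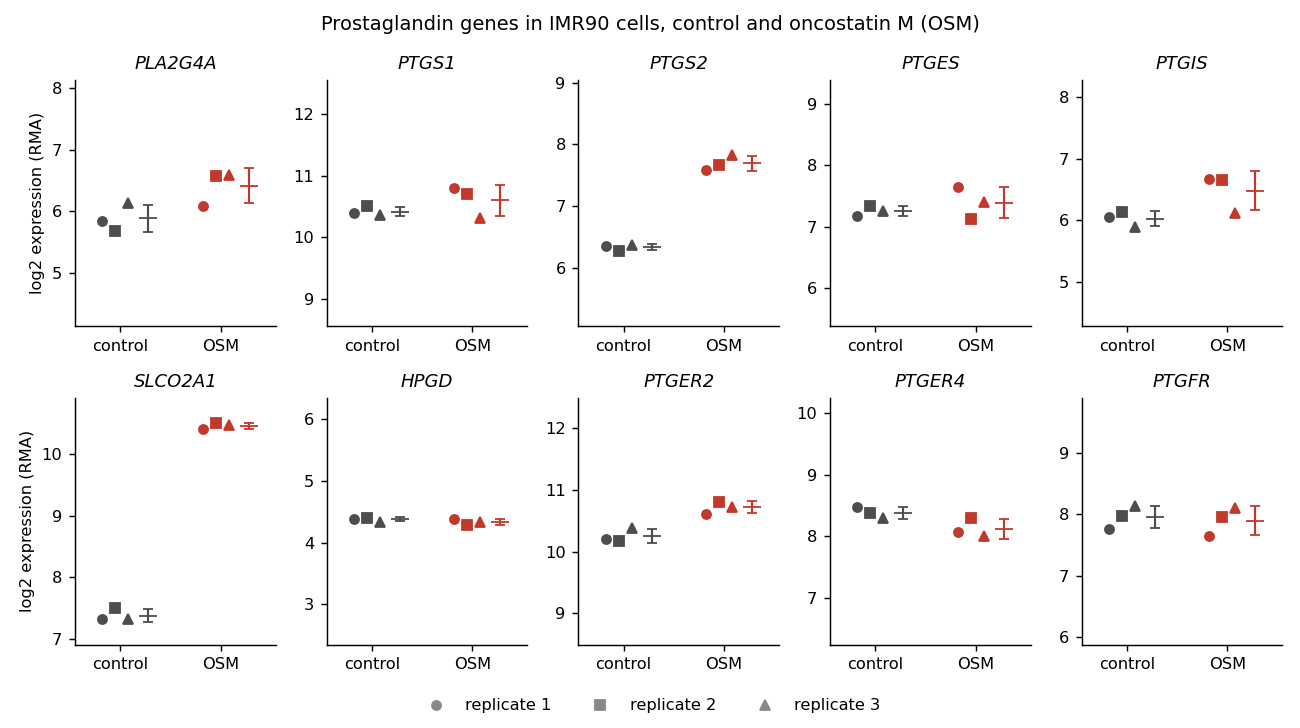
Log2 expression (RMA) of the 10 prostaglandin genes on each array, with control in grey and oncostatin M (OSM) in red. Symbols mark the replicate number, bars give the mean ± SD of 3 arrays, and every panel spans the same height in log2 units. SLCO2A1, PTGS2 and PTGER2 have groups that do not overlap, and the other 7 genes have groups that do.

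At the entry to the pathway, PLA2G4A encodes the cytosolic phospholipase that releases arachidonic acid. Its level was 5.85, 5.69 and 6.13 in control and 6.09, 6.57 and 6.59 after oncostatin M. Oncostatin M replicate 1 lay below the highest control, so the groups overlapped. The change was 0.53 (SE 0.16, 95% interval 0.16 to 0.89, limma adjusted p = 0.163). Its spread within groups was wider than that of 95.5% of genes (pooled SD 0.252, against a median of 0.113). Without oncostatin M replicate 1 the change was 0.69 and passed the threshold (limma adjusted p = 0.0141), as it did with array weights (0.67, adjusted p = 0.00286). Both means lay below the 95% level of silent genes, where sizes are uncertain.

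The cyclooxygenases PTGS1 and PTGS2 catalyse the same committed step. PTGS1 is the form that many cells keep at a steady level, and PTGS2 is the form that cytokines and growth factors induce. PTGS2 stood at 6.35, 6.27 and 6.37 in control and at 7.58, 7.67 and 7.83 after oncostatin M. Every oncostatin M array lay at least 1 log2 unit above every control array. The change was 1.36 (SE 0.08, 95% interval 1.17 to 1.56, limma adjusted p = 0.00018), the rise ranked at 30 among 18417 genes. Its control mean (6.33 ± 0.05, SD, n = 3) lay above 91.2% of silent genes and its oncostatin M mean (7.69 ± 0.13, n = 3) above 97.3%, so the size of the rise from that low control level is uncertain.

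PTGS1 stood at 10.39, 10.51 and 10.36 in control and at 10.80, 10.70 and 10.32 after oncostatin M. Replicates 1 and 2 of oncostatin M were above all controls, and replicate 3 was below all of them. The change was 0.19 (SE 0.12, limma adjusted p = 0.736). Its 95% interval ran from -0.10 to 0.47, below the whole interval of PTGS2. Without oncostatin M replicate 3 the PTGS1 change was 0.33 (limma adjusted p = 0.167). It was 0.09 without oncostatin M replicate 1 (adjusted p = 0.811) and 0.031 with array weights (0.92). The difference between the changes of the 2 cyclooxygenases was not tested.

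The promoters of these 2 genes are shown because one gene rose after the cytokine and the other did not pass the threshold. The stretches are the 250 bases before each start in RefSeq (GRCh38.p14), 5′ to 3′ on the gene's strand. RefSeq's table gave 1 start for PTGS2, on the minus strand at chr1:186680424-186680673, and 2 for PTGS1, on the plus strand at chr9:122370283-122370532 and chr9:122375052-122375301. Capitals mark matches, on either strand, to 4 motifs: TTCNNNGAA (STAT), TTNCGNAA (C/EBP), the core of the cyclic AMP response element and the TATA box. The cyclic AMP core was searched as TGACG. For the TATA box the letters searched were TATAAA. No 2 matches overlapped in these stretches.
PTGS2: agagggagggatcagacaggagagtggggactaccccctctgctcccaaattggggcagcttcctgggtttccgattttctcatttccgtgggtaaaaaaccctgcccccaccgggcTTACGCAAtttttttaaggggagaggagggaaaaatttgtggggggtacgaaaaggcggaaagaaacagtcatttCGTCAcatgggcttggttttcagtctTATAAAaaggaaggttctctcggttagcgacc
PTGS1, upstream start: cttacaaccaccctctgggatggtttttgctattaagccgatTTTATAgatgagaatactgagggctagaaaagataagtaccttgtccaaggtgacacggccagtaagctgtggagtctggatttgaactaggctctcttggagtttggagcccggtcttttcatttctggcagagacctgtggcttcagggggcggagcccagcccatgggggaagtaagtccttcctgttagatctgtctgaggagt
PTGS1, downstream start: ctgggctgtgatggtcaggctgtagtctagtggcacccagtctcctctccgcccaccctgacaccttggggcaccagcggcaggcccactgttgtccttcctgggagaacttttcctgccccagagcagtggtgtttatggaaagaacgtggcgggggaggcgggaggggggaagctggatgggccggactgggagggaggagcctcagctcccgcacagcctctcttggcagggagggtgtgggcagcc

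In PTGS2 the TATA letters began 32 bases before the start, the cyclic AMP core 58 bases and the C/EBP letters 133 bases before it. The C/EBP letters occurred in 1 of 10 promoters of the prostaglandin genes, that of PTGS2, and in 2.18% of 35116 promoters of the same length. The upstream PTGS1 promoter held a TATA match on the opposite strand, 208 bases before the start, and the downstream one held none of the 4 motifs. TATA letters occurred in 2 of the 10 promoters and in 10.7% of all, and the cyclic AMP core in 3 of the 10 and in 21.2% of all. STAT letters occurred in none of the 10 and in 6.57% of all, which says only that these letters are not in these windows. A match is a description of letters and no sign of binding. The table held promoters of 8 of the 10 genes, 10 promoters in all. SLCO2A1 and PTGIS had no promoter in it, so these motif counts do not cover them.

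The terminal synthases PTGES, which makes prostaglandin E2, and PTGIS, which makes prostacyclin, did not pass the threshold. PTGES stood at 7.17, 7.34 and 7.25 in control and at 7.65, 7.13 and 7.40 after oncostatin M. The oncostatin M arrays spanned the control range, with replicate 1 the highest and replicate 2 below all controls. The change was 0.14 (SE 0.13, 95% interval -0.15 to 0.43, limma adjusted p = 0.848), and it was 0.015 without oncostatin M replicate 1. PTGIS stood at 6.05, 6.13 and 5.90 in control and at 6.67, 6.65 and 6.12 after oncostatin M. Replicate 3 of oncostatin M lay within the control range and the other 2 above it. The change was 0.45 (SE 0.15, 95% interval 0.11 to 0.80, adjusted p = 0.227). Without oncostatin M replicate 3 the PTGIS change was 0.63 and passed (limma adjusted p = 0.0181). It was 0.36 without oncostatin M replicate 1 (adjusted p = 0.309) and 0.25 with array weights (0.391), and passed in neither fit. Both PTGIS means lay below the 95% level of silent genes.

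SLCO2A1 carries prostaglandins from the outside into the cell, the step that precedes their breakdown. Its level was 7.32, 7.50 and 7.33 in control and 10.41, 10.50 and 10.47 after oncostatin M. The groups lay far apart, and the arrays within each group lay close together. The mean was 7.38 ± 0.10 (SD, n = 3) in control and 10.46 ± 0.05 (n = 3) after oncostatin M. The change of 3.08 (SE 0.08, 95% interval 2.90 to 3.26, limma adjusted p = 2.29e-06) was the highest of all 18417 genes. With any 1 array left out it lay between 3.05 and 3.13.

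HPGD, the dehydrogenase that inactivates prostaglandins once they are inside the cell, stood at 4.39, 4.40 and 4.34 in control and at 4.39, 4.29 and 4.34 after oncostatin M. The groups overlapped, and the gene was among the least variable, with 5.51% of genes showing a smaller spread (pooled SD 0.0415). Its means lay above only 36.2% of silent genes in control and 34.5% after oncostatin M. At such a level an array cannot show whether the transcript is present. The change was -0.038 (SE 0.068, 95% interval -0.19 to 0.12, limma adjusted p = 0.963).

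Among the receptors, PTGER2 was 10.20, 10.17 and 10.38 in control and 10.61, 10.81 and 10.73 after oncostatin M. All oncostatin M arrays were above all controls. The change was 0.46 (SE 0.09, 95% interval 0.26 to 0.66, limma adjusted p = 0.0271). The call was near the threshold. It was lost without control replicate 1 (limma adjusted p = 0.152), control replicate 2 (0.126), oncostatin M replicate 2 (0.102) or oncostatin M replicate 3 (0.0907). Centring the arrays on their medians also lost it (0.075). The change stayed between 0.42 and 0.53 in these fits.

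PTGER4 encodes EP4, the other receptor for prostaglandin E2 that raises cyclic AMP. It stood at 8.48, 8.37 and 8.29 in control and at 8.06, 8.30 and 8.00 after oncostatin M. Replicates 1 and 3 of oncostatin M were below all controls, and replicate 2 was level with the lowest one. The change was -0.26 (SE 0.10, 95% interval -0.49 to -0.038, limma adjusted p = 0.306), and it did not pass with any array left out. The signs of PTGER2 and PTGER4 thus differed, and the difference between their changes was not tested.

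PTGFR, the receptor for prostaglandin F2alpha, stood at 7.76, 7.97 and 8.13 in control and at 7.64, 7.95 and 8.10 after oncostatin M. The groups overlapped almost fully. The change was -0.061 (SE 0.14, 95% interval -0.37 to 0.25, limma adjusted p = 0.970), and its sign turned without control replicate 3, without oncostatin M replicate 1 and with array weights.

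The promoter of PTGER2 is shown as that of the receptor gene that rose. It lies on the plus strand at chr14:52314062-52314311 (GRCh38.p14) and is marked as above.
PTGER2: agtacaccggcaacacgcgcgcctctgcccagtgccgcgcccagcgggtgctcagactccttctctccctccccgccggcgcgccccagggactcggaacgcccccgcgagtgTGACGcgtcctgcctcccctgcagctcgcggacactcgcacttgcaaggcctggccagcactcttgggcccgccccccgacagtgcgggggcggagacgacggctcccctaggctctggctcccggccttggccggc
It held the cyclic AMP core, beginning 137 bases before the start, and none of the other 3 motifs. Its GC content was 74.0%, against 50.4% in the PTGS2 promoter and a median of 58.0% over all promoters.

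Groups that do not overlap were found in 3 of the 10 genes, all higher, and in 7.43% of all genes in that direction and 10.6% in the lower one. Of the 10 genes, 4 varied less within groups than the median gene, namely HPGD and the 3 genes that rose, and PLA2G4A and PTGIS were the most variable.

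**Figure D2:**
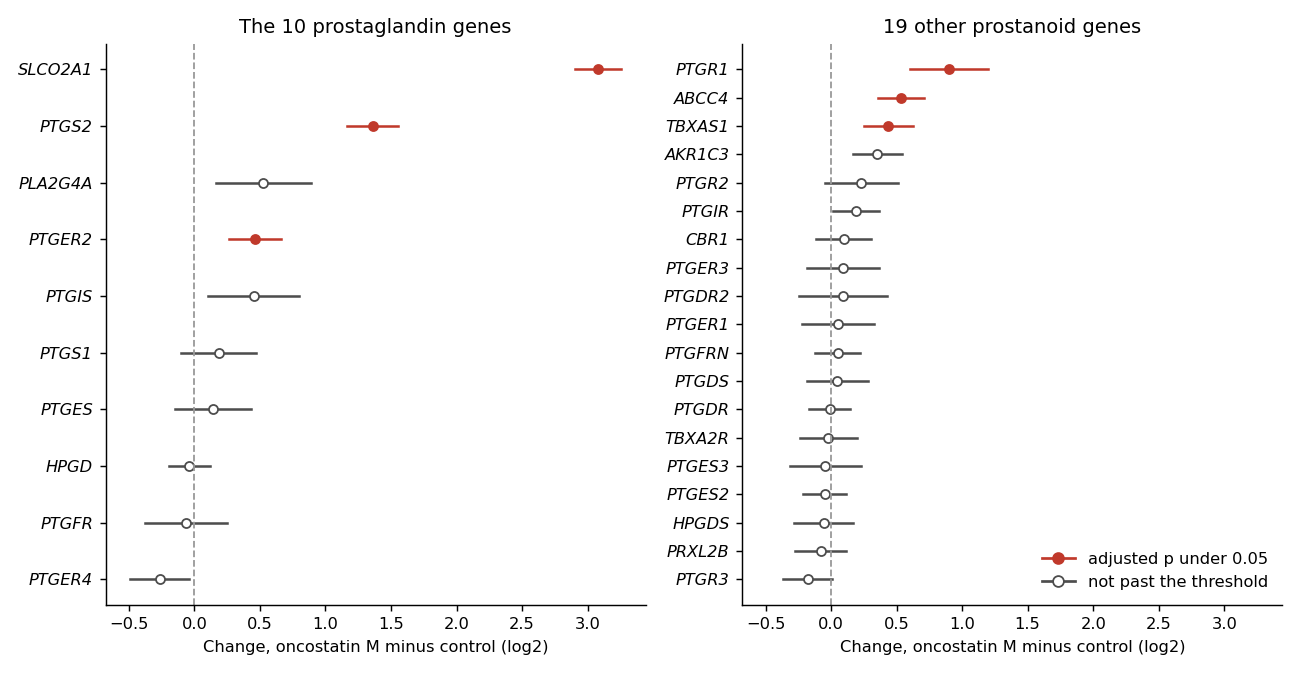
Changes (oncostatin M minus control, log2) of the 10 prostaglandin genes on the left and of 19 other prostanoid genes on the right, with 95% confidence intervals from limma. Filled red points passed an adjusted p of 0.05, and open grey points did not. SLCO2A1 (3.08) and PTGS2 (1.36) lie apart from the others, which run from -0.26 to 0.90.

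The plot with arrays left out shows how changes and calls moved. A lost call need not mean that a change rests on that array, since such fits have fewer arrays. Higher calls over all genes numbered 156 to 400 in them, against 316 with all 6 arrays. SLCO2A1 and PTGS2 passed in 6 of 6 fits, PTGS2 with a change between 1.29 and 1.42 and a limma adjusted p of at most 0.00561. PTGER2 passed in 2 of 6, PTGIS and PLA2G4A in 1 of 6 each, and PTGS1, PTGES, HPGD, PTGER4 and PTGFR in none.

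**Figure D3:**
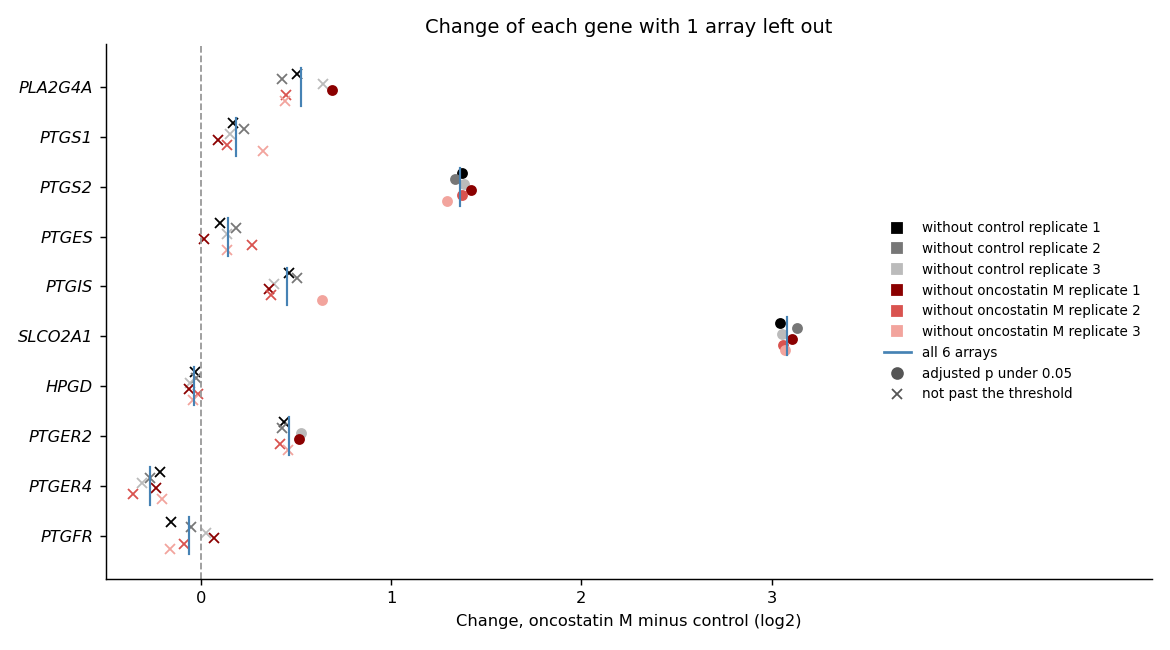
Change of each prostaglandin gene (oncostatin M minus control, log2) refitted without 1 array at a time, coloured by the array left out, with the value from all 6 arrays as a blue line. Circles passed an adjusted p of 0.05 in limma and crosses did not. PTGIS passed without oncostatin M replicate 3 (0.63) and PLA2G4A without oncostatin M replicate 1 (0.69).

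The profiles of SLCO2A1 and PTGS2 over the 6 arrays were set against all other genes, each gene centred on its mean, by the root mean square distance in log2 units. The 5 genes nearest to SLCO2A1 were SHISA3 (0.154), the deiodinase DIO2 (0.271), the chemokine CXCL12 (0.399), the acid phosphatase ACP3 (0.486) and the signalling inhibitor SOCS3 (0.513). They rose by 2.06 to 2.89, and no gene rose as far as SLCO2A1. The 5 genes nearest to PTGS2 were PCBP3 (0.095), the sulfide oxidoreductase SQOR (0.107), the laminin chain LAMA4 (0.109), SH2D4A (0.113) and FLRT3 (0.115), which rose by 1.17 to 1.52. The distance is set mainly by the size of the change, and it is given as a description over 6 arrays.

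Of the wider prostanoid pathway, 19 of 20 listed genes were measured, and 3 were higher and none lower in limma. At an unadjusted p under 0.05 the counts were 5 and 0. The median change of the list was 0.053. Of all genes, 1.72% were called higher and 1.70% lower, and 4.98% and 6.66% at an unadjusted p under 0.05. PTGR1, an oxidoreductase that acts on prostaglandin and leukotriene metabolites, stood at 9.61, 9.61 and 9.78 in control and at 10.28, 10.63 and 10.80 after oncostatin M. All oncostatin M arrays exceeded all controls, by a change of 0.90 (SE 0.13, limma adjusted p = 0.00768). ABCC4, a pump that exports prostaglandins among other anions, stood at 10.98, 11.04 and 10.95 in control and at 11.60, 11.55 and 11.42 after oncostatin M. It rose by 0.53 (SE 0.08, adjusted p = 0.00737), so transcripts of an import and of an export carrier for prostaglandins were both higher. TBXAS1, thromboxane synthase, rose by 0.44 (SE 0.08, limma adjusted p = 0.0237), from 8.15 ± 0.09 (SD, n = 3) to 8.58 ± 0.08 (n = 3).

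Without control replicate 1 none of these 3 genes passed (limma adjusted p = 0.0655 for PTGR1, 0.0581 for ABCC4 and 0.126 for TBXAS1), and TBXAS1 passed in 1 of 6 such fits, that without oncostatin M replicate 1. Of the rest, AKR1C3, a reductase that can make prostaglandin F2alpha, had a change of 0.35 (adjusted p = 0.0618) and PTGR2 one of 0.23 (0.574). AKR1C3 passed without oncostatin M replicate 1 (0.029) and with array weights (0.00456). Its means (4.68 and 5.03) lay among those of silent genes, and its probes may pick up other AKR1C genes of near-identical sequence, so the value is uncertain. The synthases PTGES2, PTGES3, PTGDS and HPGDS and the receptors PTGER1, PTGER3, PTGDR, PTGDR2, PTGIR and TBXA2R did not pass. Control means of HPGDS, PTGDR and PTGER3 lay above only 17.4%, 57.2% and 57.5% of silent genes. At such levels an array cannot show whether these transcripts are present.

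Other enzymes that free or divert arachidonic acid were read as well. Among the phospholipase A2 genes measured, 15 lay at or below the 95% level of silent genes in both groups, where sizes are uncertain. Of 20 measured phospholipase A2 genes, 1 was lower and none higher in limma, with a median of 0.04. At an unadjusted p under 0.05, 2 were lower and 0 higher. Of all genes, 1.70% were called lower, and 6.66% were lower at an unadjusted p under 0.05. The phospholipase A2 gene called lower was PLA2G4C, a cytosolic phospholipase. It stood at 6.51, 6.39 and 6.44 in control and at 6.15, 6.08 and 6.12 after oncostatin M. The groups did not overlap, and the change was -0.33 (SE 0.07, limma adjusted p = 0.0421). The call was kept in 1 of 6 fits with an array left out, that without oncostatin M replicate 1 (adjusted p up to 0.195, without control replicate 1), and both means lay below the 95% level of silent genes. PLA2G15 (-0.26, adjusted p = 0.202) and PLA2G2A (0.23, 0.577) had the largest changes of the others.

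Among 16 measured leukotriene and lipoxygenase genes, the other main branch of arachidonic acid metabolism, none passed with limma, and none had an unadjusted p under 0.05. Changes ran from -0.15 (MGST3, adjusted p = 0.612) to 0.13, and ALOX5AP, the protein that presents arachidonic acid to the lipoxygenase ALOX5, had one of -0.13 (0.775). Of these genes 11 of 16 lay below the 95% level of silent genes in both groups. The 10 other organic anion transporters of the SLCO family had none past the threshold with limma, with a median of 0.074. At an unadjusted p under 0.05 in limma 1 of them was higher, against 4.98% of all genes. The higher transporter was SLCO5A1 (0.31, adjusted p = 0.0557), which passed after quantile normalization (0.0377) and with array weights (0.0212). SLCO1B3 followed with 0.16 (0.841). In 8 of the 10 both means lay below the 95% level of silent genes.

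EP2 and EP4 act through cyclic AMP. Of 29 measured genes of cyclic AMP synthesis, breakdown and response, 2 were higher and 2 lower, with a median of -0.031. The shares over all genes were 1.72% and 1.70%. At an unadjusted p under 0.05 in limma, 2 were higher and 5 lower, against 4.98% and 6.66% of all genes. The groups did not overlap for 2 higher and 6 lower genes, against 7.43% and 10.6% of all genes. PRKAR2B, a regulatory subunit of protein kinase A, stood at 8.67, 8.52 and 8.80 in control and at 9.28, 9.55 and 9.61 after oncostatin M, a rise of 0.82 (SE 0.11, limma adjusted p = 0.00566). AKAP12, a scaffold that anchors protein kinase A, stood at 8.37, 8.52 and 8.08 in control and at 7.23, 7.07 and 7.12 after oncostatin M. It fell by 1.18 (SE 0.12, limma adjusted p = 0.0013), and both genes passed in 6 of 6 fits with an array left out. Among phosphodiesterases, which break cyclic AMP down, PDE4D rose by 0.42 (adjusted p = 0.0206) and PDE8A fell by 0.43 (0.0252), but PDE4D passed only without oncostatin M replicate 1 among such fits, and PDE8A only without oncostatin M replicate 1 or 3. PDE7B (-0.26, adjusted p = 0.349) and PDE4B (-0.23, 0.405) did not pass, nor did any adenylyl cyclase.

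**Figure D4:**
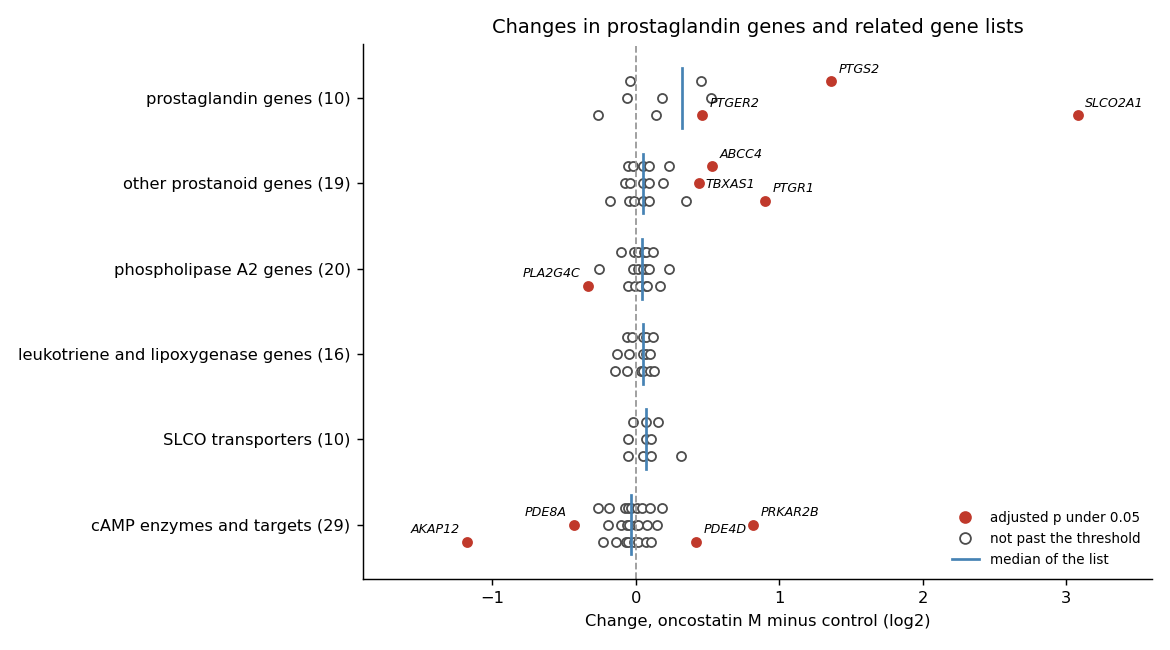
Changes (oncostatin M minus control, log2) of the 10 prostaglandin genes and of the genes of 5 related lists, 1 point a gene, with the number measured in parentheses. Red points passed an adjusted p of 0.05 in limma and blue lines mark list medians. Calls in the related lists run from -1.18 (AKAP12) to 0.90 (PTGR1), below the changes of PTGS2 and SLCO2A1.

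Endothelial cells are known for high SLCO2A1, so their markers were read on the same arrays. None of 10 endothelial markers passed with limma. At an unadjusted p under 0.05 in limma 1 was higher, TEK, against 4.98% of all genes. TEK had a change of 0.47 (limma adjusted p = 0.182). With 1 array left out it passed in 1 of 6 fits, that without oncostatin M replicate 3 (0.0328). Its limma adjusted p reached 0.52 without control replicate 3. The mean level over the 10 lay between 6.27 and 6.39 in control and between 6.32 and 6.57 after oncostatin M. Changes of the 10 ran from -0.22 (TIE1, limma adjusted p = 0.479) to that of TEK, with a median of 0.041. In 6 of the 10 both means lay below the 95% level of silent genes, PECAM1, CDH5 and VWF among them. Means above that level in control and after oncostatin M were those of EGFL7 (7.52 and 7.60), CLDN5 (6.96 and 7.06), ROBO4 (6.79 and 6.84) and TEK. TEK was the highest of the 10, with means of 8.57 in control and 9.04 after oncostatin M. None of 9 leukocyte markers passed with limma (0 at an unadjusted p under 0.05). In 7 of the 9 both means lay below the 95% level of silent genes. CD68 (10.67 in control, 10.65 after oncostatin M) and TYROBP (7.92 and 8.03) lay above it. Of 10 epithelial markers 1 was higher, KRT18 (0.52, limma adjusted p = 0.019). In 8 of the 10 both means lay below the same level. Among them was EPCAM (4.71 and 4.86), an epithelial surface protein, with a change of 0.15 (adjusted p = 0.744). KRT8 lay above it (7.76 and 7.74), with a change of -0.014 (adjusted p = 0.989). Of 10 fibroblast markers 2 were higher, LUM (0.75, limma adjusted p = 0.0222) and PDGFRA (0.39, 0.0337). At an unadjusted p under 0.05 in limma, 5 fibroblast markers were higher and 0 lower, against 4.98% and 6.66% of all genes. Their median change was 0.23, with 7 of the 10 above 0. Genes called higher made up 1.72% of all genes. With 1 array left out, LUM and KRT18 each kept their call in 3 of 6 fits and PDGFRA in 2 of 6. The highest limma adjusted p came without control replicate 2 for LUM (0.109) and without control replicate 1 for PDGFRA (0.157) and KRT18 (0.118). In RNA of whole cultures a change in the share of cells and a change in RNA per cell cannot be told apart.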

How the data were processed

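Total RNA of 6 IMR90 samples, 3 control and 3 oncostatin M, was hybridised as biotin-labelled target to gene-level Affymetrix arrays, with groups and replicate numbers as the sample titles give them. The deposited values are log2 expression, 1 per probe set and array, which the authors computed by RMA, using version 1.1 of Affymetrix Expression Console. Both names come from the submitters' processing notes, which list no settings. RMA shrinks differences at low intensity. The probes' genome build is not given in the labels.

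Of 33297 probe sets, a platform gene table gave 1 symbol for 19460, several for 1754 and none for 12083. The probe set with the highest mean was kept for each of 18417 genes, with no filter on dim genes. R 4.3.3 with limma 3.58.1 (functions lmFit and eBayes, group as the only term, two-sided, Benjamini-Hochberg over all genes) was used at an adjusted p of 0.05, and was tested on simulated data. Figures were drawn with matplotlib 3.10.9.

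The prostaglandin genes and the other lists were chosen with earlier results of these data known. Named are all 10 prostaglandin genes, from each related list the genes past the threshold and the 2 largest changes of the rest, marker genes past the threshold, and the 5 genes nearest to SLCO2A1 and to PTGS2. TEK, and markers named for their level, were chosen after their values were seen, as were the motifs. The number of arrays limits the precision. Alternatives changed the normalization, the probe set, the filter on dim genes, the variance prior or the threshold (0.01), weighted the arrays, added the replicate number as a block or left out 1 array.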

Additional observations from a re-analysis of the deposited data

How the results depend on the processing

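With 17 alternatives, SLCO2A1 and PTGS2 kept their calls wherever they were tested (PTGS2 falls below the filter at the median of all genes), and of 42 named genes none that was called changed sign. Over those genes, 623 of 688 values stayed on their side of the threshold, 57 lost a call and 8 gained one. The count of prostaglandin genes higher lay between 2 and 4 in all alternatives. With array weights 667 genes were higher and 610 lower over all genes, and at an adjusted p under 0.01 the counts were 175 and 112. With an array left out they lay between 156 and 400 and between 105 and 332, lowest without control replicate 1. In such fits the other prostanoid genes higher numbered 0 to 4, the phospholipase A2 genes lower 0 to 1, and the cyclic AMP genes 1 to 2 in each direction. The single phospholipase A2 call became 0 with arrays centred on their medians, both filters on dim genes (which remove PLA2G4C), both other variance priors and a threshold of 0.01. SLCO family calls were 1 after quantile normalization and 1 with array weights. Cyclic AMP genes higher were 1 with either filter (which removes PDE4D) and at 0.01, and those lower were 1 with centred arrays and at 0.01.

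Replicate numbers need not pair the samples: deviations of same-numbered arrays correlated at -0.063, -0.353 and 0.302. With the replicate number as a block, 255 genes were higher and 223 lower, prostaglandin genes higher were 2, phospholipase A2 calls 0 and cyclic AMP calls 1 in each direction, and PTGER2 did not pass (limma adjusted p = 0.0666). Dim genes, among them HPGD, PTGIS and PLA2G4A, are limited by signal over background, which the deposited values do not give.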
